A study of Oryza sativa with 12 samples.

Results

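The response of rice shoots to 6 h at 4 °C was measured in 3 lines of the ZH11 cultivar, on 6 of the 12 arrays of the series. The lines are OE2 and OE28, which overexpress OsMYB30, a MYB transcription factor, and CK, the ZH11 control, which is 1 line. Each line gave 1 array before cold and 1 after it, and the comparison pairs these arrays within the line. All 3 lines were seedlings at the 4-leaf stage grown in potting soil, and the RNA came from shoots and leaves. Cold was a chamber held at 4 °C with 14 h of light and 10 h of dark. The sources used here give neither the promoter that drives OsMYB30 nor the number of plants behind an array. The other 6 arrays are of Huayang, with 2 lines homozygous for an osmyb30 mutation (mutant1 and mutant2) and 1 wild type line (WT), treated alike, and serve here for comparison. The arrays hold 57381 probe sets, of which 123 controls were left out, and 34355 passed a filter on dim signal.

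In rice, chilling is sensed within minutes, calcium enters the cell, and calcium-binding proteins and kinases pass the signal on. DREB1 genes, the rice counterparts of the CBF genes of Arabidopsis, encode transcription factors that switch on protective genes. Jasmonate signalling also responds to cold, and the TIFY (JAZ) proteins are its repressors, which jasmonate itself induces. OsMYB30 is known as a negative regulator of cold tolerance in rice. Its own transcript was not analysed here, because no probe set was paired with it under the gene names used. Whether a probe set without that name reads it was not tested.

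All changes are differences of log2(intensity + 16), after minus before cold, which understates the change of dim genes. Errors are standard errors (SE) from limma, and calls were made where the p, adjusted by Benjamini-Hochberg over all probe sets tested, was under 0.05. The model has 2 residual degrees of freedom, so the number of arrays limits the precision. The lines differ in genotype and nothing in the labels says that arrays stand for separate sowings. The p-values rest on the spread between these 3 lines, which limma moderates toward a trend shared by all probe sets. In bulk tissue, fewer cells of a type and less RNA per cell cannot be told apart. Cold and the time that passed cannot be told apart, since no plants kept warm for 6 h were among the samples. Probe sets for reporter genes, which have no rice target, read up to 73.9 on 62 of 64 probe sets. Where a group averaged at or below 73.9 it is called dim, and its change is given as at least the value obtained with readings below 73.9 set to 73.9. A reporter probe set outside the 62, RPTR-Os-A00196-1_s_at, read 7940.3 to 10805.7 in OE2 and OE28. It read 25.8 to 49.0 in CK, in WT and in the mutants before cold, but 103.6 and 113.5 in the mutants after it. Rises from just above 73.9, such as those of DREB1B, ABA8OX1 and MYB2, thus depend on where the limit is set.

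Most leaf markers were bright, as the tissue label implies, while markers of root and of dividing cells were mixed. RBCS, the small subunit of Rubisco, read 22532.2 or more and the light-harvesting gene CAB2R 18972.7 or more on all 6 ZH11 arrays. Another leaf marker, RBCS1, read 7.6 to 10.1, in the dim range. The root silicon transporter gene Lsi2 read at most 10.6 and the meristem gene OSH1 at most 10.1. Among genes of dividing cells, PCNA read 151.9 to 213.5 and CYCB1-1 61.3 to 119.7, while MCM2 to MCM7, CYCB2-1 and CYCB2-2 were dim. Of the other root markers, NIP2-1 fell from 197.7 to 305.8 before cold to 151.3 to 184.1 after it (-0.41, limma adjusted p = 0.00731). NRAMP5 fell by 0.34, from 170 to 305.1 before cold to 127.2 to 201.5 after it, so both were above the dim range. YSL15 stayed between 34.3 and 45.4. Of the wall markers, CESA9 (-0.25), BC1 (-0.24) and CESA7 (-0.20) fell, while CESA4 (-0.08, limma adjusted p = 0.182) and BC1L6 (0.31, 0.112) were not called, and the epidermal gene GL2-1 fell by 0.30. Their part in the results below was not tested. The reporter probe set RPTR-Os-K01193-1_at read 11860.8 to 12539.4 in OE2 and OE28 at both times and 18.6 and 64.3 in CK. In Huayang it read 13835.2 to 17781.9 in the mutants, and 2658.5 and 3821.8 in WT. The test of a difference between cultivars is therefore also given without WT, while the mean changes of Huayang include it. Before scaling, the medians of the arrays lay between 34.6 and 37.15.

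Limma called 11166 of 34355 probe sets (32.5%), 4264 higher (12.4%) and 6902 lower (20.1%) after cold, and 15226 had an unadjusted p below 0.05. More probe sets fell than rose, while the largest changes were increases. The median called increase was 0.37 and the median called decrease -0.38, so the directions differed in the large changes and not in the median size. Increases of 2-fold or more numbered 658 (1.92%) and decreases 311 (0.905%). At 4-fold or more 258 rose and 11 fell, and beyond log2 4 there were 58 increases and no decrease. The largest increase was 6.93 and the largest decrease -2.91, while 91.3% of calls were smaller than 2-fold. Dim signal bounds part of these: 112 of the 258 were dim before cold, and 8 of the 11 were dim after it. The split of the calls moved with scaling, from 38.2% higher to 26.8% on the values as deposited (3129 higher and 8554 lower) and 23.2% with median centring (2657 and 8805). Over all probe sets the median change was -0.000939, against -0.04 and -0.06 under those scalings. Without OE2 limma called 6440 probe sets, without OE28 7804 and without CK 12317.

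**Figure D1:**
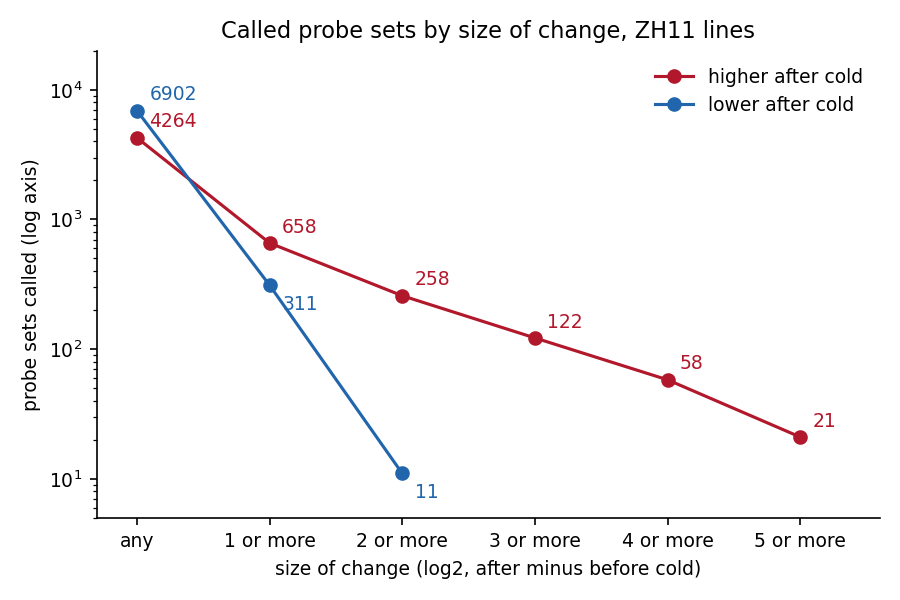
Number of probe sets called after 6 h at 4 °C in the ZH11 lines (y axis, log scale) whose change was at least the size on the x axis (log2), for increases (red) and decreases (blue). Decreases outnumbered increases over all calls (6902 against 4264), but 258 increases and 11 decreases reached a log2 size of 2.

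The changes of the 3 lines were correlated. Across the probe sets tested, the changes of OE2 and OE28 correlated at r = 0.903, those of OE2 and CK at 0.868, and those of OE28 and CK at 0.870. These are correlations across probe sets of arrays scaled together, which are not independent replicates. Of all probe sets tested, 62.7% moved in the same direction in all 3 lines. At 2-fold or more, 647 rose and 336 fell in OE2, 662 and 460 in OE28, and 721 and 379 in CK. The first principal component of the 6 arrays accounted for 68.6% of the variance, with the arrays before cold at -43.3 to -39.2 and those after it at 39.96 to 42.1. The second held 19.6% and parted CK (34.7 and 23.9) from the overexpression lines (-24.9 to -4.61). In 35.3% of all probe sets the 3 readings before cold did not overlap the 3 after it.

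The DREB1 genes were among the genes that rose furthest. Of 5 listed, 4 rose (80%), against 11.9% of the 2223 genes with a published name. Of these 2223 genes 29.3% fell, and both shares apply to each list count below. The lists hold only genes with a published name, so they do not stand for all members of a family on the array. DREB1B (NCBI gene 4347618) read 93, 107.3 and 78.3 in OE2, OE28 and CK before cold and 9609, 9289.4 and 8078.8 after it. All arrays after cold lay far above all arrays before it, and the lines were close to each other at both times. The increase was 83.8-fold (log2 6.39, SE 0.06, limma adjusted p = 1.75e-09). DREB1A (NCBI gene 4347620) read 79.4, 84.8 and 54.1 before cold and 6883, 6812.2 and 6150.9 after it. It rose by at least 6.14, since it was dim before cold (limma adjusted p = 1.75e-09). DREB1G read 32.3, 25.3 and 17.8 before cold and 1863.9, 1657.3 and 1015.1 after it. Its rise was at least 4.06 (adjusted p = 7.01e-09 in limma), and CK was the lowest line at both times. DREB1E, which read 51.8, 38.4 and 43.2 before and 219.4, 128.1 and 113.6 after cold, rose by at least 0.93. DREB1C read 43.6 to 58.3 on all arrays, in the dim range (0.23, limma adjusted p = 0.0501). The factors other than DREB1C had thus been at or near the dim limit before cold, and they ended between 113.6 and 9609.

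The TIFY repressors of jasmonate signalling divided into a group that rose strongly and a group that did not. Of 13 listed, 6 rose (46.2%) and 2 fell (15.4%), with a list median of -0.04 beside -0.07 over genes with a published name. TIFY11E (NCBI gene 4348531) read 30, 56.6 and 23.8 before cold and 5919, 6080.9 and 6754.1 after it, an increase of at least 69.2-fold (log2 at least 6.11, limma adjusted p = 4.87e-08). TIFY11A read 52, 87.4 and 43.2 before and 5222.6, 5352.3 and 5862.7 after cold and rose by at least 5.87. OE28 was the highest line before cold for both genes and CK the lowest. TIFY11B was well above the dim limit before cold, at 738, 717 and 767, and read 13610.3, 13778.5 and 14599.8 after it (4.22, SE 0.04, limma adjusted p = 1.75e-09). Its second probe set rose by 4.83. TIFY11D rose by 2.96 (SE 0.12), TIFY11C by 2.21 (SE 0.19) and TIFY10A by 1.93 (SE 0.04). The 5 TIFY11 genes listed thus all rose, by 2.21 or more.

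The other TIFY genes moved little, although some were bright. TIFY10B read 7182.5, 7285.7 and 7588 before cold and 6271.2, 6012 and 6289.1 after it, and fell by 0.26 (SE 0.04). TIFY3 fell by 0.18 (SE 0.04), from 8513.4 to 9107.4 before cold to 7708.6 to 8058.9 after it. TIFY6A (-0.04), TIFY6B (-0.07), TIFY10C (-0.15), TIFY9 (-0.16) and TIFY5 (-0.06) were not called, with limma adjusted p values of 0.16 to 0.56. TIFY9 gave 0.14 without OE28, and a second probe set of TIFY6B gave 0.24. Of 13 jasmonate synthesis genes, 5 rose (38.5%) and 3 fell (23.1%), with a list median of -0.06. AOS2 and AOS1, allene oxide synthases that commit the pathway to jasmonate, rose by 1.51 (SE 0.07) and 1.06 (SE 0.06), and the lipoxygenase gene CM-LOX1 rose by 0.96 (SE 0.10). The oxophytodienoate reductase-like gene OPR5 fell by 0.65 (SE 0.17), from 316 to 110.1 in OE28 and by less in the others, and gave -0.34 without OE28 (limma adjusted p = 0.0466). With median centring the number that rose was 3.

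**Figure D2:**
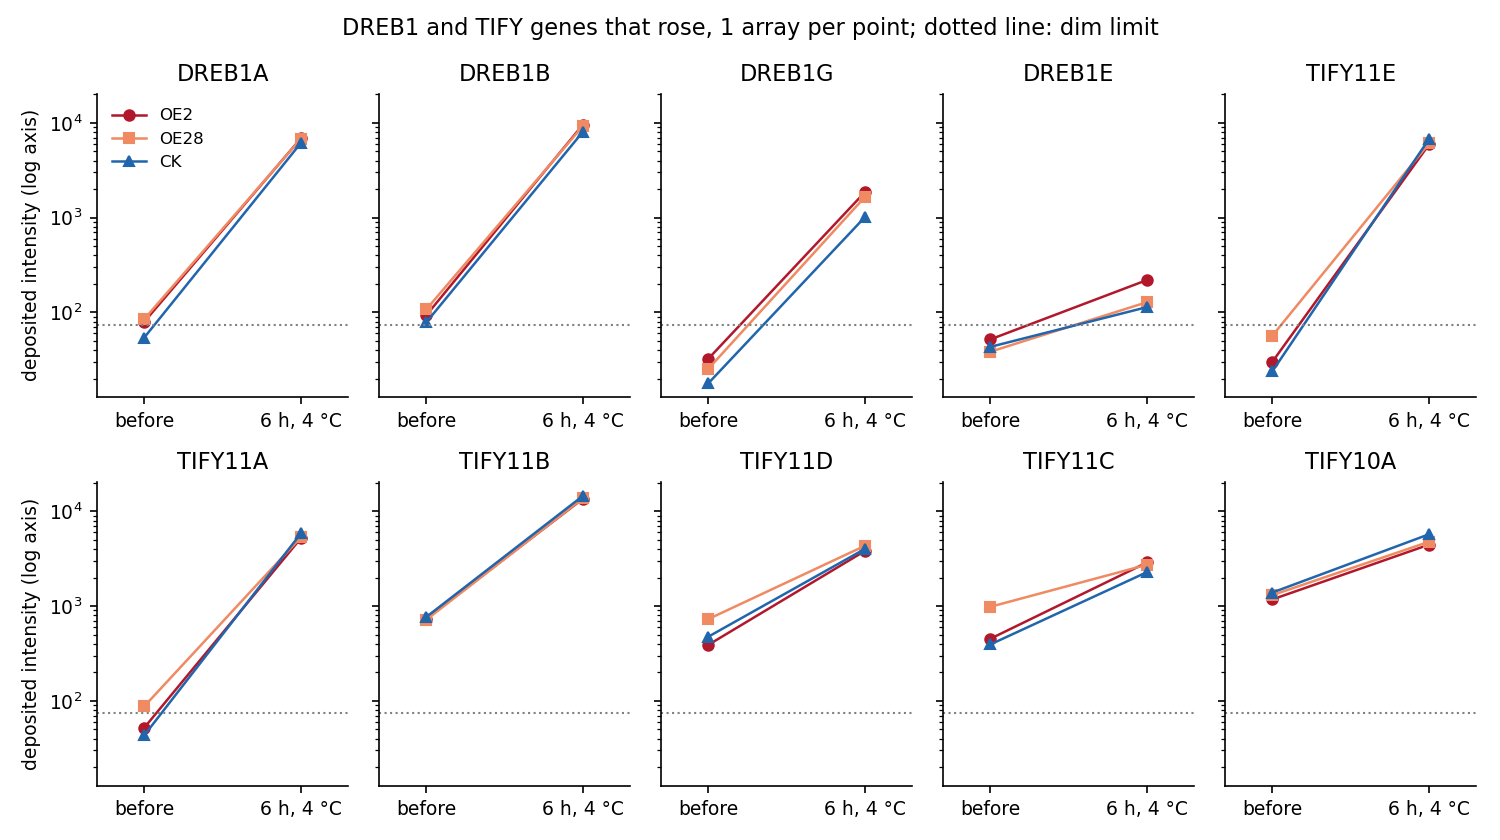
Deposited intensity (y axis, log scale) before and after 6 h at 4 °C of the 4 DREB1 and 6 TIFY genes that rose, with 1 point per array and a line joining the arrays of OE2 (circles), OE28 (squares) and CK (triangles). The dotted line is the dim limit of 73.9, and DREB1A, DREB1G, DREB1E, TIFY11E and TIFY11A averaged below it before cold.

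Other transcription factors followed the DREB1 and TIFY genes in size. MYB2 (NCBI gene 4332651) read 105.5, 101.9 and 92.2 before cold and 2955.6, 3135.1 and 2725.1 after it, a 25.9-fold rise (log2 4.70, SE 0.05, limma adjusted p = 1.75e-09). MYB4, an R2R3-MYB factor that raises cold tolerance when it is overexpressed in Arabidopsis, read 250.6, 306.2 and 272.1 before and 6087, 6816.4 and 7024.9 after cold, a rise of 4.56 (SE 0.05). In both genes the 3 lines lay close together at each time. Of 10 MYB genes 4 rose (40%) and 5 fell (50%), and without OE2 or without OE28 3 fell. MYBAS1 fell with no size established, since it ended dim, and MPH1 fell by 0.85 (SE 0.08). BHLH148, a basic helix-loop-helix factor that binds TIFY proteins, rose by 4.04 (SE 0.07), from 84.4 to 98.7 before cold to 1578.3 to 1794.6 after it.

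All 6 WRKY genes listed, which are not the whole family, were called, 3 in each direction. WRKY71 rose by 3.43 (SE 0.14) and WRKY24 by 3.19 (SE 0.08). WRKY76, a factor linked to blast resistance and cold tolerance in rice, read 130, 105.8 and 79 before cold and 462.3, 622.4 and 1197.7 after it. Its rise was 2.68 (SE 0.28, limma adjusted p = 0.000263), and CK was the lowest line before cold and the highest after it. WRKY51 fell by 1.29 (SE 0.08). Of 6 NAC genes, 4 rose (66.7%) and 1 fell (16.7%). NAC067 rose by 2.54 (SE 0.09), NAC068 by 1.94 (SE 0.10), NAC45 by 1.59 (SE 0.11) and NAC048 by 1.09 (SE 0.05). NAC068 and NAC067 belong to a family in which several members are induced by drought and salt. These 2 lists had medians of 1.21 and 1.34.

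Of 71 calcium sensor and kinase genes, 16 rose and 21 fell (median -0.05), and the share that fell, 29.6%, was close to the 29.3% of genes with a published name. CML15, a calmodulin-like calcium sensor, read 251, 223.4 and 259.5 before cold and 5270, 5020.1 and 4362.3 after it, a 19.3-fold rise (log2 4.27, SE 0.10, limma adjusted p = 5.41e-08). CML31 rose by 4.06 (SE 0.13), from 185.4, 309.3 and 237.7 to 4251.5, 4312.8 and 3842.5. CML16 rose by 3.04 (SE 0.04) and CML27 by 2.43 (SE 0.06), while a dim second probe set of CML27 gave 0.25 (limma adjusted p = 0.0549). The largest decreases in the list were of kinases that act with calcineurin B-like sensors. CIPK5 read 978.8, 974.4 and 722.1 before cold and 241.8, 243.4 and 130.6 after it, a fall of 1.98 on the log2 scale (SE 0.10, limma adjusted p = 3.84e-06). CIPK6 fell by 1.67 (SE 0.08) and CIPK18 by 1.25 (SE 0.06).

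Hormone genes other than those of jasmonate were led by a single enzyme. ABA8OX1, which encodes an abscisic acid 8'-hydroxylase that breaks the hormone down, read 95.2, 97.5 and 101.5 before cold and 4417.8, 4861.2 and 3962.4 after it. The rise was 39.2-fold (log2 5.29, SE 0.08, limma adjusted p = 6.54e-09). Of 23 abscisic acid genes, 7 rose (30.4%) and 6 fell (26.1%, close to the 29.3% of genes with a published name). SAPK2, an SnRK2-type kinase gene of this pathway, rose by 0.72 (SE 0.04). The PP2C phosphatase genes PP2C68 and PP2C09, whose products restrain abscisic acid signalling, fell by at least 0.81 and by 0.52 (SE 0.09). The number that rose was 3 without OE2 and 4 without OE28, and 4 and 3 on the values as deposited and with median centring.

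Of 27 cytokinin genes, 16 fell and 2 rose (median -0.26), against 29.3% of genes with a published name that fell. The response regulator gene RR4 read 596.7, 503 and 387.2 before cold and 291.5, 216.3 and 192.3 after it, a fall of 0.93 (SE 0.06, limma adjusted p = 2e-05). LOGL9 and LOGL10, which resemble the enzyme that activates cytokinin, fell by 0.92 (SE 0.08) and 0.67 (SE 0.06), and CKX3, a cytokinin oxidase gene, fell with no size established. The number that rose was 1 without OE2, without CK and under both other scalings. Of 55 auxin genes, 24 fell (43.6%), 7 rose (12.7%) and 24 were not called (median -0.12). IAA23, an Aux/IAA repressor gene, rose by 1.02 (SE 0.09), though its second probe set gave 0.18 and was not called, and IAA19 rose by 0.68 (SE 0.10). ARF17 fell by 0.70 (SE 0.06). The number that rose was 3 without OE2 or without OE28, and 4 and 2 under the other scalings.

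Among 12 ethylene genes, 6 fell (50%) and 3 rose (25%), and 3 fell without OE2. The receptor genes ETR3 and ETR2 fell by 0.55 (SE 0.06) and 0.49 (SE 0.07). ACO1, which encodes the last enzyme of ethylene synthesis, rose by 0.45 (SE 0.06). The synthase gene ACC2 rose by at least 0.26, and without OE2 its call was lost (limma adjusted p = 0.0639), while its change of 1.01 was 0.65 without CK. Of 9 gibberellin genes KAO fell by 0.28 and the others were not called, and KAO lost its call without OE2 (limma adjusted p = 0.178) or OE28 (0.3).

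Stress protein genes gave a mixed picture. HSFA3, a heat shock factor that acts downstream of DREB2 in Arabidopsis, read 250.8, 231.2 and 194.8 before cold and 3267.4, 2833.6 and 3991.8 after it. CK was the lowest line before and the highest after cold, and the rise was 3.84 (SE 0.10, limma adjusted p = 1.14e-07). HSFC1B rose by 1.81 (SE 0.10), HSFA4D by 1.07 (SE 0.06) and HSFA9 by 1.05 (SE 0.07). Of 44 heat shock genes, 9 rose (20.5%) and 10 fell (22.7%), and 5 rose without OE2 and 4 with median centring. The list's median was 0.01 and turned to -0.05 and -0.07 under the other scalings. Among 8 dehydrin and LEA genes, whose proteins protect cells against water loss, Dhn1 rose by 0.99 (SE 0.09), from 694.1, 960.2 and 1132.8 to 1644.1, 1772.3 and 1997.7, and the others were not called. A dim second probe set of Dhn1 gave -0.21. Of 25 peroxide and glutathione enzymes 3 rose (12%) and 2 fell (8%), APX8 (0.18, SE 0.05), GSTZ5 (0.14), GRC2 (-0.20) and GSTU1 (-0.25) among them. Each of these 4 lost its call when at least 1 of the lines was left out, with limma adjusted p values of 0.0571 to 0.188. The number that rose was 1 without OE2, 0 without OE28 and 1 without CK, and the number that fell was 1 without OE2 or OE28.

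Carbohydrate genes were led by trehalose-6-phosphate phosphatases, which make trehalose. TPP1 read 459.4, 362.1 and 334.3 before cold and 5011.5, 5183.5 and 5442.3 after it, a 13.4-fold rise (log2 3.75, SE 0.08, limma adjusted p = 3e-08). TPP7 rose by 1.78 (SE 0.11), from 355.8 to 555.9 before cold to 1581.3 to 1738.3 after it. TPP2 rose by 0.34 (SE 0.09), a call lost without OE2 (limma adjusted p = 0.0612), on the values as deposited (0.101) and with median centring (0.159). TPP10, dim throughout, lost its call as a lower gene without OE2 (0.125). In all, 3 of 6 rose (50%) and 1 fell (16.7%). Of 30 sugar transport and sucrose genes, 10 fell (33.3%, close to the 29.3% over genes with a published name) and 1 rose, and 6 fell without OE2 or without OE28. SWEET1B fell by 0.84 (SE 0.05), SWEET2B by 0.75 (SE 0.07) and SWEET16 by 0.65 (SE 0.08). A sucrose transporter gene named SUT2, a name that another gene of the list shares, rose by 0.41 (SE 0.06). SWEET proteins carry sugars across membranes. In the starch lists 1 of 5 breakdown genes (GWD3, 0.19) and 1 of 6 synthesis genes (SS1, 0.19) rose, and both calls were lost without OE2 (limma adjusted p = 0.153 and 0.238), without OE28 (0.0574 and 0.0771) and under both other scalings.

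The largest decrease of a gene with a published name was that of a wall-loosening protein. EXPB7, a beta-expansin gene (NCBI gene 4331300), read 780.3, 979.6 and 1021.3 before cold and 174.6, 156 and 156.5 after it. CK was the highest line before cold, the lines were alike after it, and the fall was 2.30 on the log2 scale (4.92-fold, SE 0.11, limma adjusted p = 3.24e-06). EXPB11 fell by 1.05 (SE 0.05), EXLA4 by at least 0.90 and EXPA2 by 0.86 (SE 0.05). Of 21 expansin genes, 12 fell (57.1%) and 1 rose (4.8%), with a list median of -0.31. That increase was lost without OE2 and under both other scalings. Aquaporins, the channels that let water across membranes, were called lower in 15 of 22 cases (68.2%) and higher in 1 (4.5%). Their list median was -0.29. PIP2-5 read 133.9, 124.2 and 212.1 before cold and 67.5, 46.7 and 112.2 after it (-0.88, SE 0.10). SIP1-1 fell by 0.57 (SE 0.05) and NIP2-2 by 0.60 (SE 0.06), while TIP2-1 was dim at both times. The single increase was lost without OE2 or without OE28.

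Other large decreases were of single genes with various roles. TDL1B, which encodes a small secreted protein related to the anther ligand TPD1 of Arabidopsis, read 179.5, 291.5 and 389.6 before cold and 36.3, 49.6 and 56.7 after it, and fell by at least 1.64. MIF3, a mini zinc finger gene, fell by 1.58 (SE 0.10) and HOX4, a homeodomain-leucine zipper gene, by 1.49 (SE 0.09). CR4, a receptor-like kinase gene of epidermal development, fell by 1.43 (SE 0.08). Hox28 and bHLH081 fell with no size established, since both ended dim and began near the limit. CASPL2B1 fell by 1.12 (SE 0.10), but its other probe sets gave -0.15 and -0.29. Of 57 cell cycle and histone genes, 22 fell (38.6%, against 29.3% of genes with a published name) and 7 rose (median -0.16), and 14 fell without OE28. The P-type cyclin genes CYCP2-1 and CYCP3-1 fell by 0.89 (SE 0.09) and 0.69 (SE 0.07) and the histone gene H2B.6 by 0.68 (SE 0.07), and CDKG-1, a cyclin-dependent kinase gene, rose by 0.70 (SE 0.06). EL2, which encodes a small inhibitor of such kinases, read 407, 490.2 and 368.2 before cold and 7398.6, 7125.7 and 7624.8 after it. It rose by 4.12 (SE 0.08, limma adjusted p = 1.73e-08), and its second probe set rose by 4.15. The replication genes MCM2 to MCM7 were dim on all arrays.

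**Figure D3:**
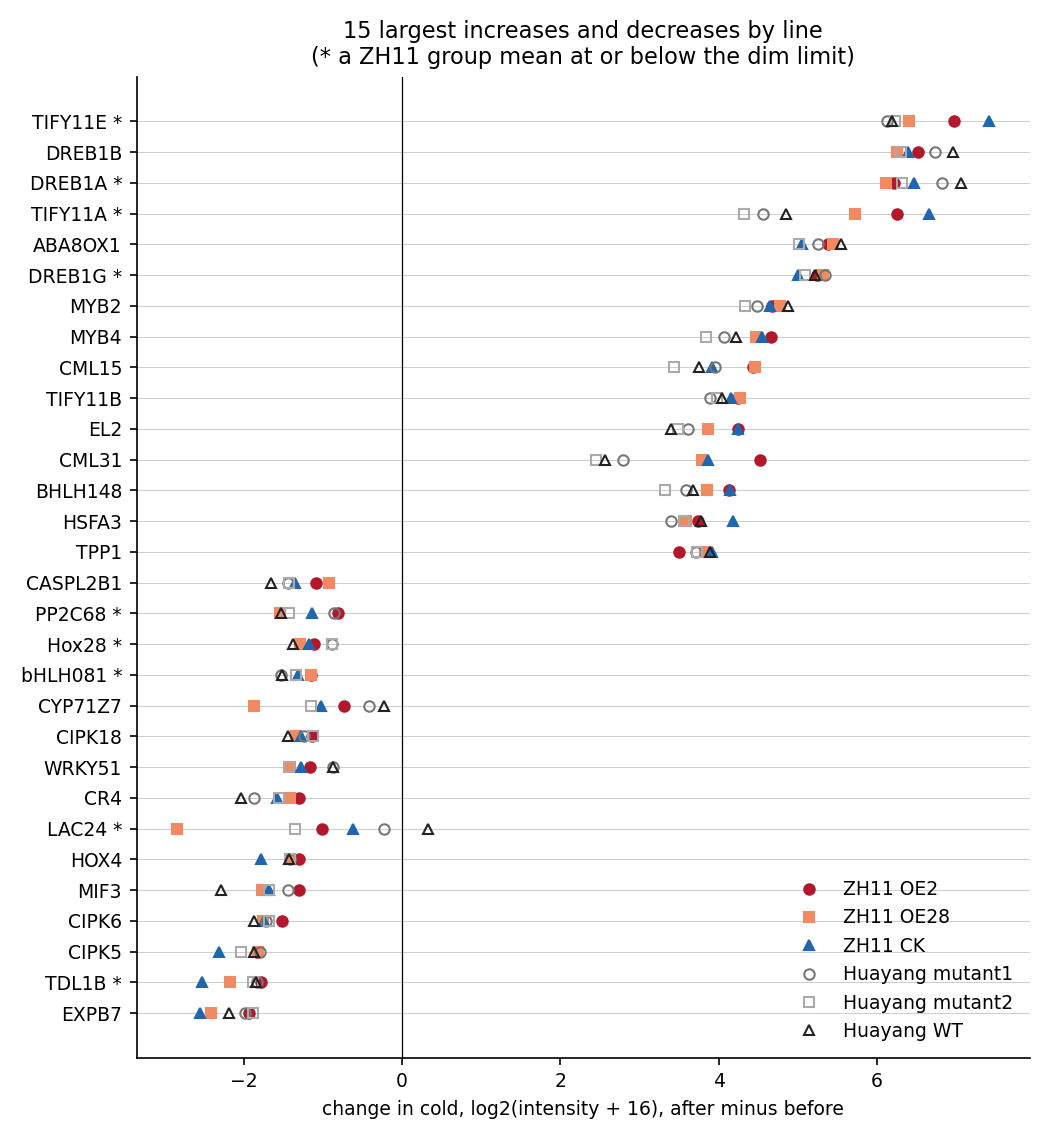
Change in cold (x axis, log2) of the 15 genes with a published name that rose furthest and the 15 that fell furthest in ZH11, by line, with ZH11 lines filled and Huayang lines open. The increases lie at 3.75 or more as means of the ZH11 lines and the decreases between -2.30 and -1.12. Among the ZH11 lines alone, LAC24 and CYP71Z7 show the widest spread.

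Some phenylpropanoid and diterpenoid genes read differently between the lines. PAL06, a phenylalanine ammonia-lyase gene, read 1326.6, 1174.1 and 375.7 before cold and 4322.1, 4426.3 and 1371.2 after it. CK was the lowest at both times, yet all 3 lines changed alike, by 1.73, 1.91 and 1.79 (mean 1.81, SE 0.05, limma adjusted p = 1.47e-07). 4CL5, a 4-coumarate-CoA ligase gene, rose by 0.86 (SE 0.11), and its readings before and after cold overlapped between lines. The laccase gene LAC24 fell from 173.4, 575.7 and 91.4 to 69.3, 64 and 54.4. Its change of -1.49 (SE 0.35, limma adjusted p = 0.0148) was -0.81 without OE28, and its call was lost with robust eBayes (limma adjusted p = 0.176). CAD8A, a cinnamyl alcohol dehydrogenase gene that ended dim, fell by at least 0.46. Its change of -0.95 was -0.39 without OE28, and its call was lost without OE2 (limma adjusted p = 0.0539). Of 30 phenylpropanoid genes, 7 rose (23.3%) and 11 fell (36.7%), and 4 fell without OE2. Among 14 diterpenoid genes, a group linked to phytoalexins and listed apart from the gibberellin genes, 3 fell (21.4%), and 8 fell without CK. CYP71Z7 read 476.2, 524.8 and 122.6 before cold and 251.4, 120.9 and 53.4 after it (-1.20, SE 0.19), with overlapping groups. CYP76M7 fell by 1.04 (SE 0.08). CPS4 was dim at both times, and its call was lost without OE2 (limma adjusted p = 0.0849).

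Of 10 chitinase and defence genes 3 rose (30%) and 4 fell (40%), and 1 rose without OE2. Cht6 rose by 1.57 (SE 0.08), Cht10 fell by 0.87 (SE 0.13) and Cht5 by 0.62 (SE 0.10). Cht3 fell by 0.65, a call lost without OE28 (-0.31, limma adjusted p = 0.0792). Among 27 nitrogen and phosphate transport genes 10 fell (37.0%) and 3 rose (11.1%), and 5 rose without CK. The phosphate transporter gene PHT1-8 rose by 0.69 (SE 0.05), SPX2, which encodes a phosphate sensor, fell by 0.66 (SE 0.07), and the ammonium transporter gene AMT3-3 fell by 0.62 (SE 0.13), or 0.41 without CK.

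Clock and housekeeping genes were also listed, though without plants kept warm they cannot part cold from the time that passed. Of 7 clock genes, PCL1 read 380.7, 398.5 and 293.6 before cold and 991.6, 1155.2 and 1141.4 after it, and rose by 1.65 (SE 0.08, limma adjusted p = 3.57e-06). The morning gene CCA1 fell by 0.22 (SE 0.04) and PRR73 by 0.24 (SE 0.04). GI (-0.05), PRR1 (0.02), PRR37 (0.06) and PRR95 (0.05) were not called. Of 13 photosynthesis genes none was called by limma, and 1 had an unadjusted p below 0.05. The largest values were -0.21 for PSAG and -0.09 for GLO3, and a dim second probe set of PSAG gave 0.17. PSAG was called as lower without CK, at -0.34 (limma adjusted p = 0.00158). Quantile scaling sets the brightest probe set of every array to 1 value, so RBCS could not change here. Before scaling it read 22532.2 to 22819 before cold and 22743.2 to 23160.3 after it. CAB2R (18972.7 to 19620), LHCP (17241 to 17698.4) and rca (14747.1 to 15795.6) also read near the top of the arrays, while GLO1 read 4418.6 to 5140.4. Whether such brightness hid a change was not tested. Of 24 ribosomal protein genes 4 fell (16.7%), RPL18 (-0.21), RPL3 and RPL11 (-0.14 each) and RPL39B (-0.12). Without OE2 or without OE28 limma called 0 lower, while without CK it called 10. In the full list 8 had an unadjusted p below 0.05 on the lower side. Of 41 housekeeping genes, 17 fell (41.5%, against 29.3% of genes with a published name), with a list median of -0.12. Only 7 fell without OE2 or without OE28. ADF5, an actin-depolymerising factor gene, fell by 0.51 (SE 0.05), PP2A1 by 0.37 (SE 0.06), TUBB4 by 0.33 (SE 0.04) and ADF11 by 0.28 (SE 0.04). A second probe set of TUBB4 gave 0.00474.

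**Figure D4:**
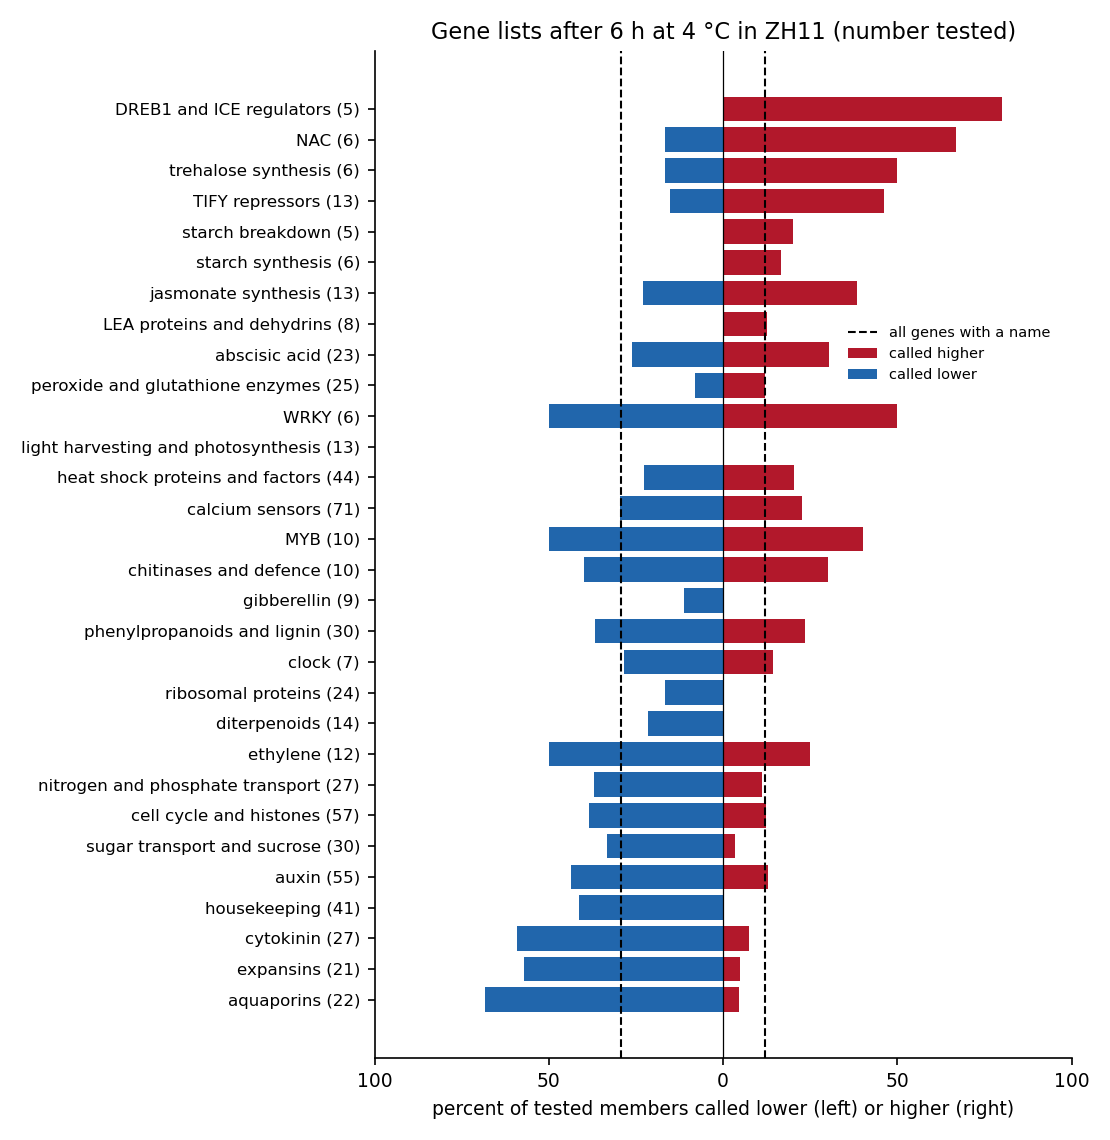
Percent of the tested members of each gene list called higher (red, right) or lower (blue, left) after 6 h at 4 °C in ZH11, with the number tested in brackets. Dashed lines mark the shares over all 2223 genes with a published name, 11.9% higher and 29.3% lower.

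Genes without a published name reached the same sizes. LOC4347266 read 12.3, 18.9 and 11.8 before cold and 4067.3, 3113.2 and 3833.1 after it, a rise of at least 5.34. LOC4326920 (at least 5.36), LOC4351514 (at least 5.29), LOC4349792 (at least 4.99) and LOC4335417 (at least 4.70) also went from dim to 1804.5 or more. On the lower side, LOC4349817 fell by 2.14 (SE 0.10), and LOC4343709, LOC4339598 and LOC4336797 by at least 1.31, 1.27 and 1.25. LOC4345264 read 587.5, 516.7 and 89.7 before cold and 91.4, 62.4 and 33.5 after it, with CK lowest at both times, and fell by at least 1.71.

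The Huayang arrays did not enter the model that called these genes, but they were scaled together with the ZH11 arrays and took part in the filter on dim signal. The mean changes of the cultivars correlated at r = 0.903 across probe sets. Of the 258 probe sets that rose at least 4-fold in ZH11, 246 rose at least 2-fold in each Huayang line, as did 499 of all 34355. Of the 311 that fell at least 2-fold, 164 fell at least 2-fold in each Huayang line, against 226 of all, and 307 moved down in each. Of the 15 named increases all went up in every Huayang line, and of the 15 named decreases 14 went down. The exception was LAC24, whose Huayang mean was -0.42.

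The difference between the cultivars was tested with a cold term for each. The ZH11 lines include overexpression lines and the Huayang lines include osmyb30 mutants, so cultivar and OsMYB30 genotype cannot be told apart in it. Limma called 198 of 34355 probe sets (0.576%), 144 with a higher change in ZH11 (0.419%) and 54 with a lower one (0.157%), and 3620 had an unadjusted p below 0.05. Without WT it called 136, without OE2 53, without OE28 50, without CK 95 and without mutant2 316. TIFY11A rose further in ZH11, by 1.63 (SE 0.21, limma adjusted p = 0.0161), where it started dim and ended at 5222.6 to 5862.7. In Huayang it read 140, 122.6 and 110.1 before and 3503, 2668.1 and 3541.5 after cold. With dim readings set to the limit the difference was 1.29. CML31 also rose further in ZH11, by 1.46 (SE 0.18, limma adjusted p = 0.0114). It started lower there than in Huayang, which read 629.8, 719.4 and 978.5 before cold, and both ended alike, with Huayang at 3840.1 to 5851.6. ACA7, a calcium-transporting ATPase gene, showed the same shape, with a difference of at least 0.64.

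Other differences were smaller. BI-1, which encodes a Bax inhibitor that restrains cell death, rose by 0.50 in ZH11 and had a mean change of 1.29 in Huayang (difference -0.79). EIL1B, which encodes a factor related to EIN3 of the ethylene pathway, fell by 0.28 in ZH11 and had a mean change of 0.45 in Huayang (difference -0.73). AMT3-2, an ammonium transporter gene, read 527.9, 547.5 and 514.6 before cold and 331.2, 321.5 and 332.5 after it in ZH11. In Huayang it read 1487.3, 1662.5 and 1630.8 before and 1496.7, 1849.7 and 1663.7 after cold, and the difference was -0.64 (SE 0.07, limma adjusted p = 0.00827). The phytosulfokine precursor gene PSK4 fell by 0.28 in ZH11 and had a mean change of 0.11 in Huayang (difference -0.39). IAA14 rose by 0.36 in ZH11 and had a mean change of -0.49 in Huayang, where it was dim at both times (difference 0.85). OPR10 was dim in ZH11 at both times and read 265 to 1029.6 in Huayang, so its difference of -1.06 rests on Huayang, and GRXS3 was dim throughout in ZH11. Without WT the calls of ACA7, IAA14, OPR10, BI-1, EIL1B and PSK4 were lost (limma adjusted p = 0.0544 to 0.118), and those of TIFY11A, CML31, GRXS3 and AMT3-2 were not. TIFY11A lost its call without OE2 (0.0809) and GRXS3 without OE28 (0.0682) or CK (0.055). Without OE2, ACA7, IAA14, OPR10, BI-1, EIL1B and PSK4 had adjusted p values of 0.0913 to 0.132, and without OE28 the same genes had 0.0801 to 0.165. Without CK the calls of ACA7 (0.0774), IAA14 (0.106), BI-1 (0.0868), EIL1B (0.0812) and PSK4 (0.114) were lost as well in limma. CML31 and AMT3-2 kept their calls with each of the 6 lines left out in turn.

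**Figure D5:**
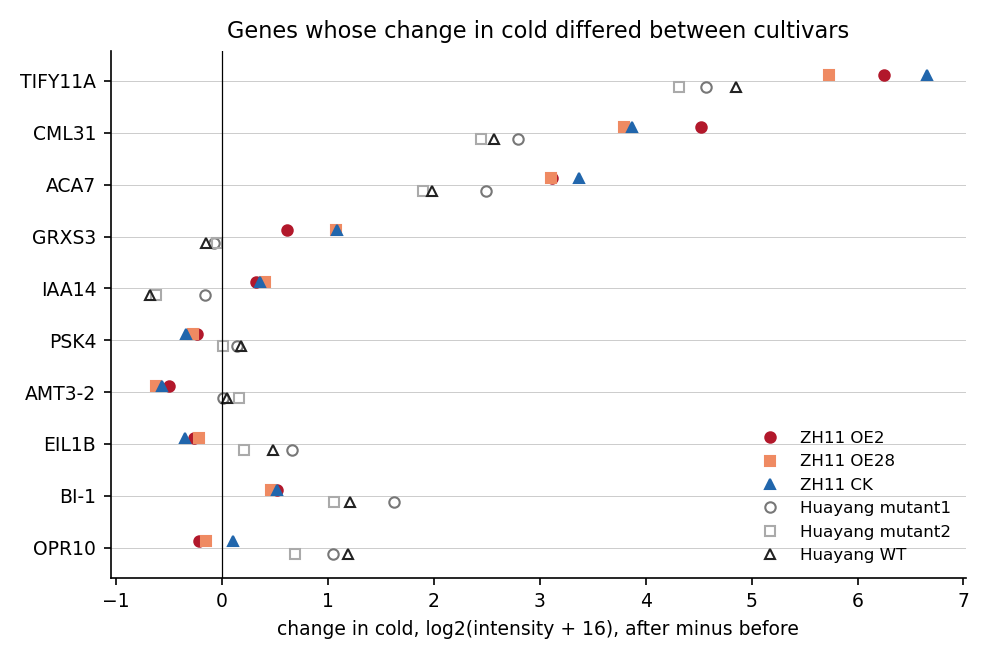
Change in cold (x axis, log2) by line of the 10 genes with a published name whose change differed between the cultivars, with ZH11 lines filled and Huayang lines open. TIFY11A, CML31 and ACA7 rose in all 6 lines and further in ZH11, while BI-1 rose further in Huayang.

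Whether overexpression of OsMYB30 altered the response to cold was tested as the change of OE2 and OE28 minus that of CK, a single line. Limma called 1 of 34355 probe sets (0.00291%), the reporter probe set RPTR-Os-K01193-1_at, which changed from 18.6 to 64.3 within the dim range in CK (difference -1.24). Without OE2 it called 2, without OE28 0, without mutant1 15 and without mutant2 13. In the full comparison no gene was called, and 2736 probe sets had an unadjusted p below 0.05. WRKY76 rose by 1.84 in OE2, 2.49 in OE28 and 3.71 in CK, a difference of -1.54 (SE 0.25) with an unadjusted p of 0.00047 and an adjusted p of 0.589 in limma. WRKY71 rose by 3.90, 3.39 and 2.99 in OE2, OE28 and CK, a difference of 0.65 (SE 0.19, limma adjusted p = 0.591). Both WRKY genes were picked after their values were seen. With 1 control line the lack of calls does not show that the lines respond alike.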

How the data were processed

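RNA from 12 rice shoot samples had been hybridised to 1 array each, and the authors deposited 1 linear intensity per probe set and array. How they were summarised and normalized is not given in the sources used here. From them log2(intensity + 16) was taken, all 12 arrays were quantile normalized, and those probe sets were kept whose mean reached the 40th percentile. Models were fitted with limma 3.58.1 in R 4.3.3 (lmFit and eBayes with trend) and p-values adjusted over all probe sets tested. The main model had line as a fixed block, because arrays before and after cold come from the same line. Deviations from the group means before and after cold correlated at 0.675 in OE2, 0.437 in OE28 and 0.689 in CK across probe sets. The tests of cultivar and of overexpression used all 12 arrays.

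The platform annotation gave 1 gene for 22436 probe sets and several for 95. Published names came from RefSeq (assembly ASM3414082v1) for 2457 genes, and a gene was represented by the probe set with the highest mean in ZH11. The genes given by name are the 15 largest increases and decreases with a published name and the 5 without, moving alike in all 3 lines, the 4 largest called members of each of 30 lists, all DREB1, TIFY and clock members, and the 5 largest each way per test of a difference. The members and lists were chosen with earlier results of these data known. The scripts were tested on simulated data. Alternatives were 2 other scalings of all arrays and 1 of the ZH11 arrays alone, other filters and pseudocounts, eBayes settings, no block, a 2-fold minimum, other arrays in the fit and each line left out.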

Additional observations from a re-analysis of the deposited data

Results flagged for a closer look

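The following were singled out because their change in cold differed between the cultivars or, in the last case, between the overexpression and control lines, in limma. The lines of the cultivars also differ in OsMYB30 genotype, and the 2 cannot be told apart. ZH11 minus Huayang gave 1.63 for TIFY11A, 1.46 for CML31, 1.07 for ACA7, 1.02 for GRXS3 and 0.85 for IAA14. It gave -1.06 for OPR10, -0.79 for BI-1, -0.73 for EIL1B, -0.64 for AMT3-2 and -0.39 for PSK4. The overexpression lines minus the control gave -1.24 for the reporter probe set RPTR-Os-K01193-1_at. TIFY11A and ACA7 were dim in ZH11 before cold, and OPR10 and GRXS3 were dim in ZH11 at both times. IAA14 was dim in Huayang at both times, and the reporter was dim in the control, so these sizes are not established. With dim readings set to the limit TIFY11A gave 1.29. The cultivars differ in the reading before cold for TIFY11A, CML31, ACA7, AMT3-2 and OPR10, and the part of that in these differences was not tested.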

How the results depend on the processing

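Of the 140 genes given by name in the cold comparison, 128 were called, and 0 of these changed sign under the 16 alternatives. Of the 12 not called, 2 did: TIFY9 (-0.16) gave 0.14 without OE28, and PRR1 (0.02) gave -0.05 on the values as deposited, -0.07 with median centring and -0.02 without CK. For the called genes the absence of sign changes says little. The other filters, the eBayes settings, the missing block, the fit on all arrays and the 2-fold minimum leave the size of a change as it was. The fit on the overexpression lines alone is the same as that without CK. Genes picked as the largest changes also had to move alike in all 3 lines, so leaving out a line could not turn them. In ZH11, median centring gave 2657 increases. Without the replicate block limma called 5177 probe sets (1945 higher and 3232 lower), and the 2-fold minimum left 969 (658 and 311). Without the replicate block 35 named calls were lost (limma adjusted p = 0.0522 to 0.698), LAC24 (0.113), CYP71Z7 (0.235), PAL06 (0.073) and 4CL5 (0.445) among them. With a line left out the calls numbered 6440 to 12317, with 2234 to 5045 higher and 4206 to 7272 lower. For the difference between cultivars eBayes without trend gave 113 calls (85 and 28), no replicate block 35 (32 and 3), and a line left out 50 to 316 (45 to 217 higher, 5 to 99 lower). Without the block 8 of the 10 named differences were lost (limma adjusted p = 0.092 to 1.00), TIFY11A and GRXS3 not, and with robust eBayes TIFY11A was lost (0.0747). Robust eBayes also ended the calls in cold of LAC24, OPR5, ACC2, CAD8A, CPS4 and Cht3 (limma adjusted p = 0.0681 to 0.226). For overexpression against control the calls numbered 0 on the values as deposited, with median centring, the 60th percentile filter, a pseudocount of 64, no trend or no replicate block, and 0 to 15 with a line left out (0 to 6 higher, 0 to 9 lower). It could not be fitted without CK. The number of arrays and dim signal limit what could be called.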

Other observations

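Some genes read very differently between the ZH11 lines at both times, chosen after their values were seen. TIFY5 read 254.7 and 208.5 in OE28 before and after cold, against 4.1 to 5.5 in OE2 and CK. EIL1B read 1944.6 and 1590.4 in OE2, 1372 and 1138.9 in OE28, and 660 and 512.7 in CK. LOC4345264, which fell in ZH11, had a mean change of -0.16 in Huayang.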
